A study of Mus musculus with 4 samples.

Results

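Type I interferon stimulated genes were followed as a set of 37 named genes in the liver RNA of WT and PA mice. They were chosen by symbol for their known place in the response, with earlier results of these data known. All 37 were matched to an identifier among the 55487 of the count tables, and all 37 passed the filter on low counts. The study compared 2 groups of female mice on the FVB background, each aged 11 weeks and kept on standard chow with a 12/12 h light-dark cycle. WT mice were wild type, and PA mice carried the genotype given in the labels as hypomorphic Pcca-/- (A138T), a shortage of the enzyme that clears propionyl-CoA. Each group held 2 libraries of polyA RNA from frozen whole liver, described as biological replicates. What drives the A138T product is not stated in the labels.

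Type I interferons are secreted when a cell detects foreign or misplaced nucleic acid. They bind the receptor formed by IFNAR1 and IFNAR2, whose kinases JAK1 and TYK2 phosphorylate STAT2. STAT2 and IRF9 are subunits of the factor ISGF3, which binds the interferon stimulated response element (ISRE) before its target genes. Most of the proteins that detect viral RNA, that signal, and that block virus growth are themselves targets, and resting liver keeps a low level of many of them, in hepatocytes and in resident macrophages.

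The promoters were searched for the core of the ISRE, because that is the element the set is defined around. The search used GAAANNGAA and its reverse complement TTCNNTTTC in windows of 300 bases, 250 before and 50 from the start site on, taken from RefSeq (GRCm38.p6, the C57BL/6J reference and not the FVB strain). A window was given for 26 of the 37 genes. At least 1 match was found for 16 of these 26 (61.5%), against 9.76% of 27025 genes with a window. A core of the interferon gamma activated site, TTCNNNGAA, was found for 5 of the 26 (19.2%), against 9.55% of all genes, and 1 of the 30 ISRE core matches in the windows of these genes shared a base with it. The 4 windows below belong to the genes with a match that had the smallest p-values in the comparison of genotypes. Capitals mark each match, and matches that overlap run together.
Ifit1: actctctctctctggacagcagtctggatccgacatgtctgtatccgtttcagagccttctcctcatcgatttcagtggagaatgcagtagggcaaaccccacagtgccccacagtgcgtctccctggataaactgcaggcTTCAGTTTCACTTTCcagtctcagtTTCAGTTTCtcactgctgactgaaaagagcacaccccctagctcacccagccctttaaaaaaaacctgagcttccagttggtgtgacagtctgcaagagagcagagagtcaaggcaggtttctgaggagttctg
Ifit3: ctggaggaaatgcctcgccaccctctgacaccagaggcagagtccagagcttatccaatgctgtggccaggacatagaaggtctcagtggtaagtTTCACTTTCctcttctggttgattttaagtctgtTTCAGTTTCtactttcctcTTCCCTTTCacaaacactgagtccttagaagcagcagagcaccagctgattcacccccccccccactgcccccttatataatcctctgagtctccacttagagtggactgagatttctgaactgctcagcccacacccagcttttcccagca
Oas1a: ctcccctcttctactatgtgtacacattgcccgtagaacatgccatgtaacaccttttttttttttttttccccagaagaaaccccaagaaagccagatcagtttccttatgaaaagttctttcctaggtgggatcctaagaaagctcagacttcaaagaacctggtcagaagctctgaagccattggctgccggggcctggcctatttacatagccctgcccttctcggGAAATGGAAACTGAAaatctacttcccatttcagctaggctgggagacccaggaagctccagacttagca
Oas1g: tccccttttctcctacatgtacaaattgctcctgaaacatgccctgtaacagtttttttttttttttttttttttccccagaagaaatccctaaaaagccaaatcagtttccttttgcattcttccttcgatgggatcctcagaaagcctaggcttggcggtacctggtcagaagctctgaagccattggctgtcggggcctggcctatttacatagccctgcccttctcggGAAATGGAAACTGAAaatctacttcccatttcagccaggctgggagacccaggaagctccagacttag

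The Ifit1 window (chr19:34640639-34640938, plus strand) held 3 matches, which began 109, 103 and 84 bases before the start site, and Ifit3 (chr19:34583279-34583578, plus strand) held 3 at 155, 121 and 102 bases. Both lie in the Ifit cluster of chromosome 19. Oas1a (chr5:120907476-120907775, minus strand) and Oas1g (chr5:120887564-120887863, minus strand) each held 2 overlapping matches close to the start, at 20 and 14 bases and at 18 and 12 bases. In the Ifit windows the element reads as the reverse complement, and in the Oas windows in the direction of the gene. A match describes letters in the window and shows no binding.

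Gene counts per library ranged from 25575016 to 30110400, so that 3 counts corresponded to 0.0996 to 0.117 CPM (gene counts scaled to a common library total). PA replicate 1 stood apart from the other 3 libraries in its share of mitochondrially encoded transcripts (13.63%, against 6.90 to 8.98%) and of reads mapped to several places (13.53%, against 9.11 to 9.42%). Values from the PA group are therefore also given by library. CPM values below are on library sizes scaled by the TMM method. Genotypes were compared by edgeR's quasi-likelihood test over 14411 genes with Benjamini-Hochberg adjustment, and a gene was called when its adjusted p was under 0.05. The p-values set the difference between groups against the spread between libraries of a group, which is estimated with the help of all genes tested. Whether the replicates came from separate litters or cages is not given, so the p-values speak for these 4 libraries.

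Most of the 37 genes had lower values in PA liver, although none passed the threshold of edgeR. The log2 fold change of PA over WT was negative for 34 of 37, where 49.4% of all genes tested were negative, and its median was -0.61, against 0.00 over all genes. Both PA libraries lay below both WT libraries for 27 of the 37 genes, and for 21.9% of all genes. For 1 of these 27, Eif2ak2, the nearest PA and WT libraries were equal to 3 digits. edgeR called 0 of the 37 (0.548% of all genes were called lower), while 18 of them were lower at an unadjusted p under 0.05, a level that 5.93% of all genes reached in that direction. DESeq2 called 8 of the 37, all lower, where it called 1.78% of all genes lower, and limma-voom called 0. The 8 were Zbp1, Oas1a, Oas2, Ifit1, Ifit3, Ifi27, Ifi27l2a and Rtp4. The median log2 fold change was -0.37 when PA replicate 1 was left out and -0.95 when PA replicate 2 was. Dropping either WT library gave a median of -0.63. The genes share the same 4 mice, so their number adds no replicates.

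**Figure D1:**
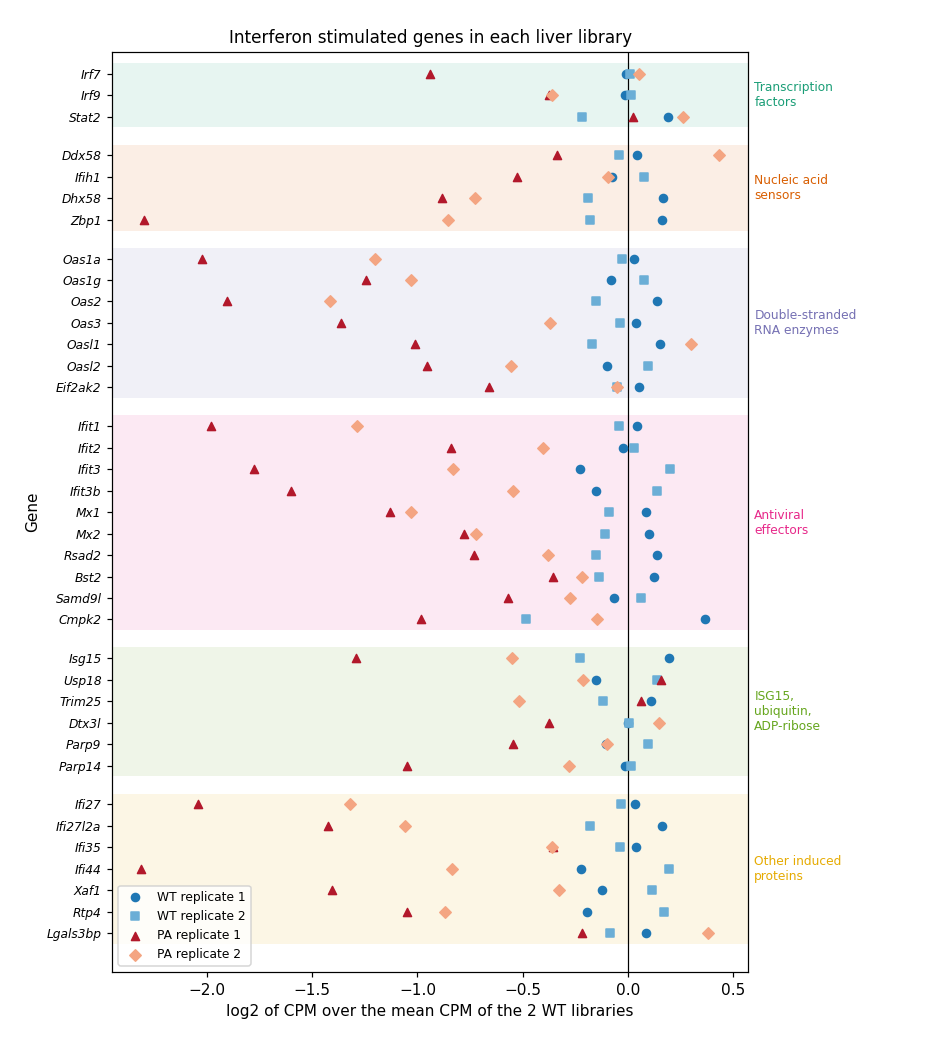
Each row is 1 gene, grouped by role; the x axis is the log2 of its CPM over the mean CPM of the 2 WT libraries, with 1 point per library. For 27 of 37 genes both PA points lie to the left of both WT points, and PA replicate 1 lies left of PA replicate 2 for 34.

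Of the 3 transcription factors of the response, Irf9 lay below both WT livers in each PA liver, Irf7 in one of them, and Stat2 in neither. Irf7, the factor that amplifies interferon production, was at 54.9 and 55.7 CPM in WT, against 28.8 in the first and 57.4 in the second PA library. Only PA replicate 1 was low, and the log2 fold change of -0.36 ± 0.32 (standard error) became 0.06 without that library. Irf9, the DNA-binding subunit of ISGF3, read 40.6 and 41.4 CPM in the WT livers and 31.6 and 31.9 in the PA livers. Its groups did not overlap and the PA libraries were close to each other, and the log2 fold change was -0.37 ± 0.18 (edgeR adjusted p = 0.497). Stat2, the STAT subunit particular to type I and type III interferon signalling, read 48.4 and 36.5 CPM in the WT livers and 43.1 and 50.9 in the PA livers, so the groups overlapped (log2 fold change 0.15 ± 0.22, edgeR adjusted p = 0.854).

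Among the sensors of nucleic acid, Dhx58 and Zbp1 had lower values in both PA livers, Ifih1 did so with PA replicate 2 just below WT, and Ddx58 overlapped. Both PA libraries lay below both WT libraries for 21.9% of all genes. None was called by edgeR, and 2 of the 4, Dhx58 and Zbp1, had an unadjusted p under 0.05. Of all genes, 5.93% were lower at that p. Ddx58 encodes RIG-I, which detects RNA with a 5′ triphosphate, and stood at 30.5 and 28.8 CPM in WT against 23.5 and 40.0 in PA. Its PA libraries lay on either side of the WT libraries. Ifih1 encodes MDA5, the sensor of long double-stranded RNA, with 43.9 and 48.8 CPM in WT against 32.2 and 43.4 in PA. Its log2 fold change was -0.29 ± 0.22, and -0.09 without PA replicate 1. Dhx58 encodes LGP2, a regulator of both helicases, and had 23.4 and 18.3 CPM in WT against 11.3 and 12.6 in PA. Both PA libraries were low, and the log2 fold change was -0.80 ± 0.22 (edgeR adjusted p = 0.196). Zbp1, a sensor of left-handed nucleic acid that can trigger necroptosis, was at 32.2 and 25.4 CPM in WT, against 5.85 in the first and 15.9 in the second PA library. The groups were apart, and the log2 fold change was -1.40 ± 0.43 (edgeR adjusted p = 0.258), which became -2.30 on leaving out PA replicate 2 and -0.85 on leaving out PA replicate 1.

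The enzymes activated by double-stranded RNA, with their relatives, had lower values for 7 of 7 genes, where 49.4% of all genes were negative. The 2′-5′ oligoadenylate synthetases make the second messenger that activates RNase L. Oas1a (chromosome 5, 120896256 to 120907521, minus strand, GRCm38) read 5.67 and 5.46 CPM in the WT livers and 1.37 and 2.42 in the PA livers, so that WT exceeded PA 2.91-fold. Its log2 fold change was -1.54 ± 0.33 (edgeR adjusted p = 0.112, and 8.59e-05 to 0.209 over 14 alternatives). Oas2 read 3.55 and 2.91 CPM in the WT livers and 0.864 and 1.21 in the PA livers (log2 fold change -1.63 ± 0.33, edgeR adjusted p = 0.0993, and 0.000304 to 0.368 over the alternatives). Oas1g had 1.76 and 1.96 CPM in WT against 0.785 and 0.909 in PA; it is a close copy of Oas1a, and reads could be divided between them. In these 3 genes the PA libraries lay well below the WT libraries. Oas3 (1.66 and 1.57 CPM in WT against 0.628 and 1.25 in PA) and Oasl2 (4.47, 5.11, 2.47 and 3.26 CPM) were apart by less. Oasl1, a synthetase relative known to restrain translation of Irf7, overlapped, with 13.0 and 10.4 CPM in WT against 5.81 and 14.4 in PA. Eif2ak2, the kinase PKR that halts translation, read 25.2 and 23.5 CPM in the WT livers and 15.4 and 23.5 in the PA livers.

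The effectors that act on viral RNA, nucleotides and membranes had lower values for 10 of 10 genes, and 7 of the 10 had an unadjusted p under 0.05, where 49.4% of all genes were negative and 5.93% were lower at that p. Ifit1, which binds viral RNA lacking a methylated cap, read 60.9 and 57.3 CPM in the WT livers and 15.0 and 24.2 in the PA livers. Means were 59.1 ± 2.57 CPM in WT and 19.6 ± 6.56 in PA (SD, n = 2 each), with both PA livers well below WT. The log2 fold change was -1.59 ± 0.26 (edgeR adjusted p = 0.0552). Over 14 alternatives that p ran from 3.16e-08, with no filter on low counts, to 0.0614, and 10 of the 14 called the gene. Some calls lay just under the threshold: 0.0488 with library sizes only, 0.0491 in unstranded counts and 0.0498 without mitochondrially encoded genes. Every fit that left out a library was also among the 10. Ifit3, a partner of Ifit1, had 35.6 and 47.9 CPM in WT against 12.2 and 23.5 in PA (log2 fold change -1.22 ± 0.33, edgeR adjusted p = 0.196). Its near copy Ifit3b (8.12, 9.94, 2.98 and 6.19 CPM in the order WT 1, WT 2, PA 1, PA 2) and Ifit2 (10.9, 11.3, 6.20 and 8.38 CPM) showed the same order of groups, and the split of reads between Ifit3 and Ifit3b is uncertain. All 4 Ifit genes had PA values below both WT values.

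The Mx genes encode dynamin-like GTPases that trap viral nucleoproteins, and many inbred laboratory strains carry defective copies. Mx1 read 3.36 and 2.98 CPM in the WT livers and 1.45 and 1.55 in the PA livers, and its log2 fold change was -1.08 ± 0.29 (edgeR adjusted p = 0.188). Mx2, which the annotation lists as a polymorphic pseudogene, read 5.77 and 4.99 CPM in the WT livers and 3.14 and 3.26 in the PA livers. For both, the PA libraries lay close together and below WT. Rsad2 (viperin, which makes a chain-terminating nucleotide) read 17.5 and 14.3 CPM in the WT livers and 9.58 and 12.2 in the PA livers, without overlap. Its neighbour Cmpk2, a mitochondrial nucleotide kinase, ranged more widely within groups (10.9 and 6.05 CPM in WT against 4.28 and 7.64 in PA) and overlapped. Bst2 (tetherin, which holds budding virus at the membrane) read 151 and 126 CPM in the WT livers and 108 and 119 in the PA livers, and Samd9l, a restriction factor of poxviruses, read 65.2 and 71.2 CPM in WT against 45.9 and 56.4 in PA. Both were apart by a small margin (edgeR adjusted p = 0.673 for Bst2 and 0.497 for Samd9l).

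The genes of ISG15, ubiquitin and ADP-ribose conjugation had the median log2 fold change nearest to 0 of the roles, at -0.25. Isg15, the ubiquitin-like protein attached to many targets in the response, was the one with an unadjusted p under 0.05. It read 26.0 and 19.4 CPM in the WT livers and 9.27 and 15.5 in the PA livers (log2 fold change -0.87 ± 0.29, edgeR adjusted p = 0.301). Usp18, which removes ISG15 and also blocks IFNAR2, read 25.3 and 31.0 CPM in the WT livers and 31.4 and 24.3 in the PA livers. Its groups covered the same range, with a log2 fold change of -0.02 ± 0.22. Trim25, the ubiquitin ligase that assists RIG-I, read 76.3 and 65.0 CPM in the WT livers and 73.6 and 49.4 in the PA livers. Dtx3l and Parp9 encode partners in one ligase complex and overlap at their starts on opposite strands of chromosome 16. Dtx3l read 36.3 and 36.4 CPM in the WT livers and 28 and 40.3 in the PA livers, and Parp9 read 69.1 and 79.4 CPM in WT against 50.8 and 69.3 in PA. Parp14, a mono-ADP-ribosyltransferase of the same locus, was lower in both PA libraries, at 36.9 and 37.6 CPM in WT against 18 and 30.7 in PA (edgeR adjusted p = 0.447).

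Of the remaining induced genes, Ifi27 and Ifi27l2a had the smallest p-values. These neighbours on chromosome 12 encode small hydrophobic proteins of mitochondrial and nuclear membranes. Ifi27 (103434211 to 103440239, plus strand) read 116 and 111 CPM in the WT livers and 27.6 and 45.4 in the PA livers, or 113 ± 3.87 and 36.5 ± 12.6 CPM (SD, n = 2 each). Its log2 fold change was -1.63 ± 0.27 (edgeR adjusted p = 0.0566). Over 14 alternatives adjusted p ran from 4.32e-08, with no filter on low counts, to 0.063. Of the 14, 6 called it, besides the fit without mitochondrially encoded genes, where adjusted p rounded to 0.05. Ifi27l2a read 22.5 and 17.8 CPM in the WT livers and 7.50 and 9.66 in the PA livers (log2 fold change -1.23 ± 0.24, edgeR adjusted p = 0.0835). Both genes showed every PA library at less than 0.5 of the WT mean. Ifi44 read 12.5 and 16.7 CPM in the WT livers and 2.94 and 8.18 in the PA livers, and Xaf1, an antagonist of XIAP, read 7.63 and 8.99 CPM in WT against 3.14 and 6.63 in PA. In both, PA replicate 1 was by far the lower library. Rtp4, a receptor chaperone induced by interferon, read 17.7 and 22.8 CPM in the WT livers and 9.78 and 11.1 in the PA livers (log2 fold change -0.95 ± 0.22, edgeR adjusted p = 0.139). Ifi35 read 42.6 and 40.5 CPM in the WT livers and 32.5 and 32.3 in the PA livers. Lgals3bp, a secreted glycoprotein, was the gene of this group without a lower mean (52.9 and 47.0 CPM in WT, 42.9 and 65.0 CPM in PA).

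**Figure D2:**
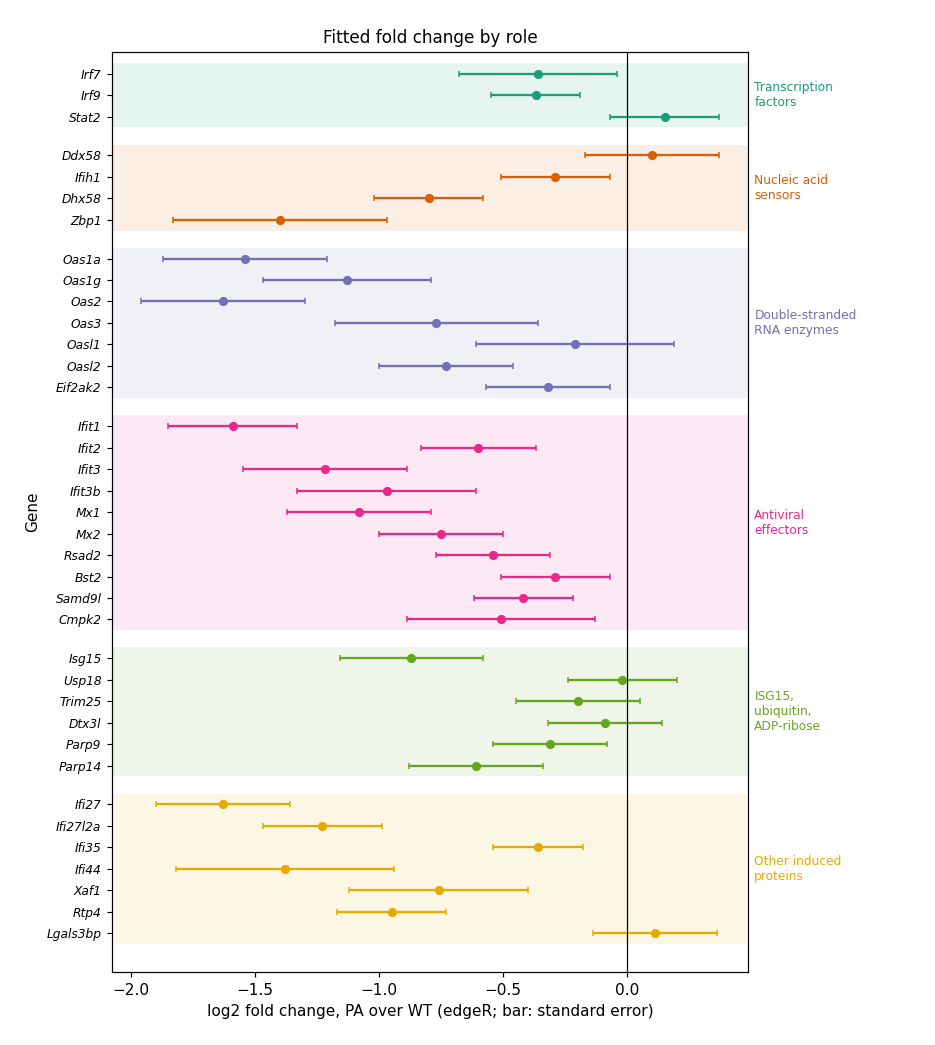
Points give the log2 fold change of PA over WT of each gene from edgeR and bars its standard error, with genes grouped by role. Transcription factors lie between -0.37 and 0.15, while the double-stranded RNA enzymes reach -1.63 (Oas2) and the antiviral effectors -1.59 (Ifit1).

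Set by role, the median log2 fold change was -0.36 for the 3 transcription factors, -0.55 for the 4 sensors, -0.77 for the 7 double-stranded RNA enzymes and -0.67 for the 10 effectors. It was -0.95 for the 7 other induced genes and -0.25 for the 6 genes of ISG15, ubiquitin and ADP-ribose conjugation. The sensors spread from -1.40 (Zbp1) to 0.10 (Ddx58), a range of the same order as that of the effectors, which ran from -1.59 (Ifit1) to -0.29 (Bst2). With 2 mice a group the differences between roles were not tested. Against the WT mean, PA replicate 1 had medians of -0.37 for the transcription factors, -0.46 for the ISG15, ubiquitin and ADP-ribose group, -0.70 for the sensors, -0.91 for the effectors, -1.25 for the double-stranded RNA enzymes and -1.40 for the other induced genes. PA replicate 2 had 0.06, -0.25, -0.41, -0.47, -0.55 and -0.84. Both sets of medians share the WT mean, and each median was nearer to 0 in PA replicate 2.

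The 2 PA livers differed from each other more than the 2 WT livers did. PA replicate 1 was the lower of the pair for 34 of 37 genes, where 49.8% of all genes tested were lower in that library. It was below both WT libraries for 34 of 37 (38.4% of all genes), and PA replicate 2 was for 29 of 37 (39.4% of all genes). Over the 37 genes the median absolute log2 ratio was 0.53 between the PA libraries and 0.20 between the WT libraries, against 0.34 and 0.22 over all genes. The exceptions to the order were Usp18, Trim25 and Ifi35, which were higher in PA replicate 1. PA replicate 1 is also the library with the higher mitochondrial share, and it is 1 library. With mitochondrially encoded genes left out of the fit, the median log2 fold change was -0.61 and 34 of 37 were lower, as in the fit reported. The part of whatever raised that share in the lower values was not tested.

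Compared per transcript length, the set spanned a wide range of levels in resting liver. Bst2 was the most abundant, with a mean of 232 TPM in WT (transcripts scaled by length and to a common total), followed by Ifi27 at 180 TPM and Ifi27l2a at 71.0 TPM. Isg15 had 47.0 TPM, and Ifi35, Ifit3, Lgals3bp and Irf7 lay between 35.3 and 38.8 TPM, closer to one another than the WT libraries of Ifit3 were (33.0 and 42.1 TPM). At the bottom were Mx1 (2.22 TPM), Oas2 (0.965 TPM) and Oas3 (0.430 TPM). In PA, Bst2 had 139 and 190 TPM and Ifi27 had 34.3 and 67.1 TPM, so Bst2 remained the higher of the pair and the distance between them was wider. The genes with the larger fold changes were thus found among both abundant genes (Ifi27) and scarce ones (Oas2). TPM is scaled within a library and was not tested.

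**Figure D3:**
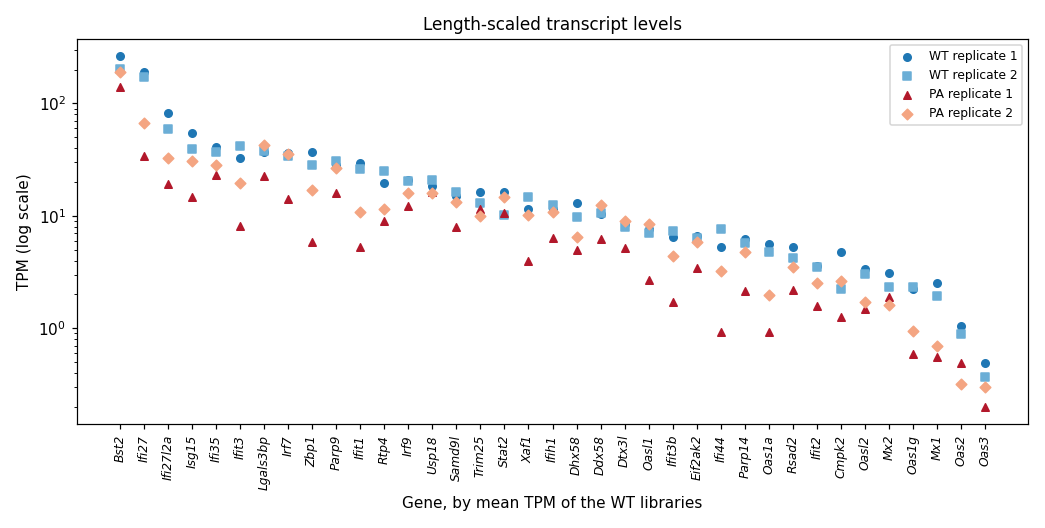
The y axis is TPM on a log scale and the x axis the 37 genes ordered by mean TPM in WT, with 1 point per library. Levels run from 232 TPM (Bst2) to 0.430 TPM (Oas3) in WT, and PA replicate 1 is the lowest library for most of the 37 genes. TPM can place that library lower than CPM does. Usp18 there was above both WT libraries in CPM, yet below both in TPM (16.3, against 18.4 and 20.9). The share of all genes lowest in that library by TPM was not computed.

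The genes that lead up to the response had medians nearer to 0, a difference that was not tested. Of 21 interferon genes, type I, II and III, none passed the filter, and 20 had 0 STAR counts in all 4 libraries, which allows up to 0.117 CPM. Ifng had 4 and 0 STAR counts in WT and 1 and 2 in PA. In the RSEM values, Ifnk was also listed, at 0.07 TPM in WT replicate 1. Of 10 tested genes of the receptors and the JAK-STAT path, 9 had lower values and 0 were called by edgeR or DESeq2. Their median log2 fold change was -0.24, and 1 was lower at an edgeR unadjusted p under 0.05. Over all genes tested, 49.4% were negative and 5.93% were lower at that unadjusted p. Ifnar1 read 27.5 and 26.9 CPM in the WT livers and 22.8 and 23.4 in the PA livers, and Ifnar2 read 21.3 and 25.0 CPM in WT against 21.4 and 19.7 in PA. Tyk2, the kinase bound to IFNAR1, was the gene past that level, with 24 and 22.7 CPM in WT against 17.7 and 16 in PA (edgeR adjusted p = 0.401). Both PA libraries were below WT for Ifnar1 and Tyk2, and Ifnar2 was within the WT range in one PA library.

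Among 14 tested genes upstream of interferon, adaptors, kinases, factors and Toll-like receptors, the median was -0.15. edgeR called 1 of the 14 lower, where it called 0.548% of all genes lower. That gene was Irf5, a factor of Toll-like receptor signalling that is prominent in macrophages and B cells (chromosome 6, 29526625 to 29541871). It read 23.2 and 12.5 CPM in the WT livers and 2.59 and 3.67 in the PA livers, and fell by 2.51 on the log2 scale with a standard error of 0.36 (edgeR adjusted p = 0.0336). The fall was called in 13 of 14 alternatives and missed by limma-voom, over adjusted p of 1.61e-16 to 0.0524. Irf3, which drives the first wave of interferon, was at 46.9 and 45.1 CPM in WT and 39.1 CPM in both PA libraries. Tlr7, a receptor for single-stranded RNA, had 5.35 and 4.32 CPM in WT against 1.57 and 3.30 in PA (edgeR adjusted p = 0.368). Ikbke, a kinase for IRF3, was higher in both PA libraries (25.0 and 14.2 CPM in WT, 28.9 and 38.8 CPM in PA; edgeR adjusted p = 0.371). Mavs, the adaptor of the RNA helicases, read 70.8 and 66.3 CPM in the WT livers and 62.2 and 99.5 in the PA livers. Of 12 negative regulators and nucleases tested, 4 had lower values, 0 were called by edgeR, DESeq2 or limma-voom, 0 had an edgeR unadjusted p under 0.05, and the median was 0.04.

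Interferon stimulated genes outside the set, also chosen with earlier results of these data known, mostly had lower values as well. Of 49 tested, 47 had lower values, 25 were lower at an edgeR unadjusted p under 0.05, 2 were called lower by edgeR, 9 by DESeq2 and 1 by limma-voom, and the median log2 fold change was -0.67. Over all genes tested the shares were 49.4% negative, 5.93% lower at that unadjusted p, 0.548% called lower by edgeR and 1.78% by DESeq2. The 2 were Trim12c and Phf11b. Trim12c, a TRIM protein of the cluster on chromosome 7, fell from 27.6 and 27.0 CPM to 10.2 and 10.1 CPM (log2 fold change -1.42 ± 0.19, edgeR adjusted p = 0.0286), and all 14 alternatives called it (adjusted p 2.11e-06 to 0.0486). Phf11b fell from 3.88 and 4.12 CPM to 1.18 and 1.04 CPM (log2 fold change -1.85 ± 0.29, edgeR adjusted p = 0.0470), and 9 of 14 alternatives called it. Adjusted p was 0.0777 without WT replicate 1, 0.0809 without WT replicate 2, 0.0593 with limma-voom, 0.0592 with RSEM expected counts and 0.0530 with a mean of at least 1 CPM, in a range from 8.98e-06 to 0.0809. Both belong to families of close copies that can share reads. Of 14 tested genes induced mainly by interferon gamma, 14 had lower values, of which 7 reached an unadjusted edgeR p under 0.05, with 0 called by edgeR or limma-voom and 3 by DESeq2, with a median of -0.61. Among them Cxcl9, a chemokine that draws T cells, read 46.4 and 35.6 CPM in the WT livers and 17.3 and 17.6 in the PA livers (edgeR adjusted p = 0.0587), and Tgtp1, a GTPase, read 15.3 and 11.8 CPM in WT against 6.16 and 6.53 in PA.

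Markers of several immune cell types had lower values beside these genes, and those of other liver cells went both ways. Of 12 Kupffer cell and macrophage markers, 11 had lower values, of which 6 reached an unadjusted edgeR p under 0.05, with 0 called by edgeR or limma-voom and 2 by DESeq2, with a median log2 fold change of -0.65 and none at 0 counts. Over all genes 49.4% were negative, 5.93% were lower at that unadjusted p and 1.78% were called lower by DESeq2. Their summed level was 778 and 690 CPM in WT, against 360 in the first and 512 in the second PA library, while the 37 genes summed to 1241 and 1191 CPM in WT against 750 and 969 in PA. Both sums put PA replicate 1 lowest. Clec4f, a lectin confined to Kupffer cells, read 208 and 166 CPM in the WT livers and 76.3 and 112 in the PA livers, and Cd5l read 178 and 160 CPM in WT against 73.4 and 106 in PA. The 6 B cell markers summed to 15.4 and 12.8 CPM in WT against 3.49 and 5.89 in PA. The 10 T and NK cell markers summed to 6.46 and 5.77 CPM in WT against 5.54 and 4.68 in PA. Of these 10, 6 were tested, 4 with lower and 2 with higher values and 0 at an edgeR unadjusted p under 0.05. Plasmacytoid dendritic cells, the main source of interferon alpha in blood, left few reads: Siglech had 18 and 14 counts in WT and 2 and 5 in PA. Of the 6 neutrophil markers 3 were tested, all 3 with lower values and 1 at an unadjusted p under 0.05. Their median was -1.14, and the 6 summed to 9.45 and 4.71 CPM in WT against 3.97 and 3.40 in PA. Of 4 tested markers of conventional dendritic cells 3 had lower values, with a median of -0.46. The 8 markers of liver endothelium had a median of -0.01 and the 6 of stellate cells -0.11. Cholangiocyte markers were mostly higher, in 4 of 5, with a median of 0.65, although Spp1 was lower at 30.5 and 45.3 CPM in WT against 24.2 and 26.9 in PA. Spp1 made up most of their summed level, and the 4 higher genes were scarce. The 5 summed to 34.3 and 48.2 CPM in WT against 29.8 and 32.5 in PA, which was lower in both PA libraries. The 8 hepatocyte markers had a median of 0.16 that covers genes in opposite directions, with 4 apart and higher and 2 apart and lower in PA. Of the 14411 genes tested, 3072 were apart and higher and 3151 (21.9%) were apart and lower. Cps1, the first enzyme of the urea cycle, was higher by 1.07 on the log2 scale (edgeR adjusted p = 0.259, DESeq2 adjusted p = 0.0157). The log2 fold change was -0.79 for Fgb, a fibrinogen chain, and -0.74 for Serpina1c. Alb, the hepatocyte product albumin, was at 120638 to 149441 CPM in the 4 libraries. In bulk liver, fewer cells of a type and less RNA per cell cannot be told apart. The part of these marker differences in the lower interferon stimulated genes was not tested.

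**Figure D4:**
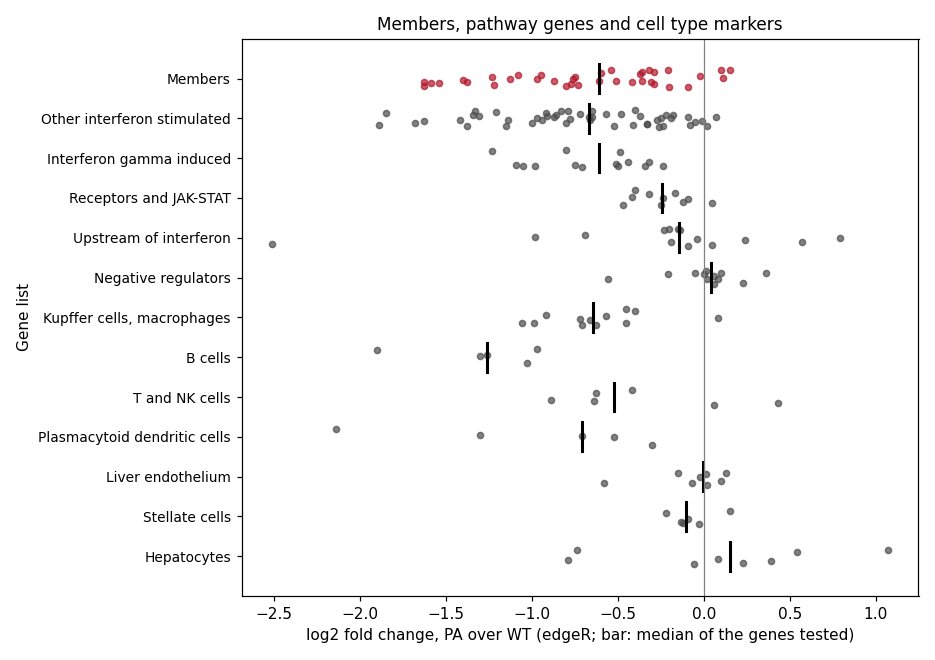
Each point is the log2 fold change of PA over WT of 1 tested gene and each bar the median of its list. The 37 genes (median -0.61), other interferon stimulated genes (-0.67), genes induced by interferon gamma (-0.61) and Kupffer cell markers (-0.65) lie to the left of 0, while negative regulators (0.04), endothelium (-0.01) and stellate cells (-0.11) lie around it.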

How the data were processed

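Liver polyA RNA of 2 WT and 2 PA mice was analysed. The authors deposited raw read counts per gene from STAR for each library, in 3 strand columns as the file layout shows. They also deposited expected counts and TPM per gene from RSEM, per the file headers. The submitters' processing notes list STAR 2.7.6a, RSEM 1.3.3 and GRCm38. The annotation used for counting is not given in the sources used here. The opposite-strand column held 96.96 to 97.08% of stranded counts and was used as the main count. Summary lines that name no gene (28.1 to 34.3% of reads) were left out. Reads mapped to several places are in no gene's STAR count, which can lower close copies such as Ifit3 and Ifit3b or Oas1a and Oas1g. Of 55487 identifiers, 55227 matched GENCODE M21, which gave symbols and GRCm38 positions.

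Genes were tested with edgeR 4.0.16 in R 4.3.3 (filterByExpr, TMM, quasi-likelihood test, prior count 0.125) with genotype as the only term, and p-values were adjusted over all genes tested. Each standard error was taken as the absolute log2 fold change over the square root of the F statistic. DESeq2 1.42.0, limma-voom (limma 3.58.1), other scalings, filters and count columns, rounded RSEM expected counts, the replicate number as a block, and leaving out each library were the alternatives. The edgeR fit was also run on simulated counts drawn gene by gene. These hold no difference shared across genes within 1 library, so that run does not bear on such differences in these data. Floors cover counting error only.

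The 37 genes, their roles, the pathway lists and the marker lists were chosen with earlier results of these data known, so no p-value over a list is given. The named genes were all 37, all genes of the interferon, receptor and upstream lists, and up to 4 genes of each other list by smallest p. Alb falls outside this rule and was chosen after its values were seen, as a check of the tissue. A promoter was printed for the 4 genes of smallest p whose window held the ISRE core.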

Additional observations from a re-analysis of the deposited data

How the results depend on the processing

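The 37 genes were refitted under 14 alternatives. The count with lower values ran from 31 (without PA replicate 1) to 34, and was 33 in unstranded counts; 29 of the 37 had the same direction throughout. The number of the 37 called, 0 in the edgeR fit reported, was 1 with library sizes only, 1 in unstranded counts, 2 without mitochondrially encoded genes, 8 with DESeq2, 13 with no filter on low counts, and 1 to 12 when each library was left out (12 without PA replicate 2); every such call was lower in PA. It was 0 with median-ratio size factors, limma-voom, a mean of at least 1 CPM and RSEM expected counts. Over all genes the calls, 117 in the fit reported (38 higher and 79 lower), were 442 with DESeq2 (186 and 256), 902 with no filter (414 and 488), and 155 to 500 leaving out 1 library. Such fits keep a lone mouse in one group, whose spread is assumed equal to that of the other group. The median log2 fold change ran from -0.95 to -0.37 in those fits and from -0.66 to -0.61 in the others. Median shifts of all genes stayed between -0.04 and 0.02.

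The sign changed under at least 1 alternative for 8 of the 37. Usp18 was 0.01 in unstranded counts. Leaving out 1 library gave -0.94 to 0.06 for Irf7, -0.03 to 0.36 for Stat2, -0.34 to 0.44 for Ddx58, -1.01 to 0.31 for Oasl1, -0.21 to 0.16 for Usp18, -0.51 to 0.06 for Trim25, -0.38 to 0.15 for Dtx3l and -0.22 to 0.38 for Lgals3bp; the cause was not tested.

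With the replicate number as a block, 318 genes were called (126 higher and 192 lower), 6 of them among the 37. Same-numbered libraries share only a number: their deviations from the group means correlated at -0.0907 over 14411 genes. Depth limits the scarcest genes, such as Oas3, where 3 counts are 0.0996 to 0.117 CPM.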
